A study of Mus musculus with 4 samples.

Results

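The sham peak set is the collection of m6A peaks called in the cerebral cortex of sham-treated mice. Its members are all rows of the deposited peak table that carry the control peak mark, 17943 of 33977 rows (52.8%). Only the read counts of the 2 sham libraries are used here, given as CPM (counts scaled to a common total over the sham peak set) and as CPM per kilobase of the length that the table lists. Both libraries are labelled as total RNA of mouse cortex taken up in TRIzol, sham treatment, and the same anti-m6A antibody (from Synaptic Systems). The labels give no strain, sex, age, sham procedure or number of mice. They call the libraries 0 and 1, state no meaning of these numbers and leave unsaid whether each library is a separate mouse. If the numbers mark different kinds of library, a mean over them mixes those kinds, so each library's value is given. The injured group of the series and its libraries are not analysed here.

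N6-methyladenosine (m6A) is a methyl mark placed on adenosines of messenger RNA while it is transcribed, by a complex built around METTL3 and METTL14. It lies mostly in long internal exons, around stop codons and in 3' UTRs, and YTH-domain proteins that bind it steer splicing, transport, translation and decay of the transcript. Brain RNA is rich in the mark, and neurons use it in development, axon growth and synaptic plasticity. Antibodies against m6A also bind m6Am, a related mark on the first transcribed base beside the cap. In methylated RNA immunoprecipitation sequencing the reads at a peak depend on how much of the transcript is present as well as on how much of it is methylated. No library of RNA without the antibody was analysed here, so a level below cannot separate methylation from abundance, and fewer cells of a type cannot be told apart from less RNA per cell.

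Because the antibody can bind at the cap, the transcription starts under the strongest short 5' UTR peaks are shown. Of 1140 peaks that the table classes as 5' UTR, 813 could be matched by gene symbol and strand to a RefSeq start (build GRCm38.p6), and 328 of those matched (40.3%) began within 50 bases of the nearest start. The following sequences run from 10 bases before the start through the 20 bases that open the transcript, on the transcribed strand, with the RefSeq start base in capitals. They belong to the 4 such peaks of highest CPM among those under 1000 bases long, apart from any on a chromosome left out here.
Ywhah: tcgcgtcctcCccgcccgcccgcccgcccg
Pcdh9: aattcagttcAgagagaggagagagaggag
Slc17a7: ccccgacgctGagtccgctacagccccggg
Gria2: cgcctgcctcGagtcgcgcacgcgcgcccg

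The Ywhah window lies at chr5:33018806-33018835 on the plus strand, and the peak, which begins 29 bases past the start, held 186 CPM in library 0 and 154 in library 1. Ywhah encodes a 14-3-3 adaptor protein. The Pcdh9 window lies at chr14:93890660-93890689 on the minus strand, and the peak of this protocadherin gene begins at the start base and held 136 and 204 CPM. The window of Slc17a7, the vesicular glutamate transporter of cortical excitatory neurons, lies at chr7:45163911-45163940 on the plus strand, with the peak 27 bases past the start at 130 and 165 CPM. The window of Gria2, an AMPA receptor subunit, lies at chr3:80802816-80802845 on the minus strand, with the peak from the start base at 113 and 110 CPM. Only the Pcdh9 start among these 4 is an A, the base that could carry m6Am.

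Over all 328 starts, A was the first base in 34.1%, against 34.4% of the 32851 starts in the RefSeq table. G was the first base in 47.0% against 35.6%, C in 9.45% against 16.3% and T in 9.45% against 13.7%. The 4 letters GGAC, the core of the usual m6A sequence, occurred on the transcribed strand in the first 50 bases of 67 of the 328 transcripts (20.4%) and of 18.9% of all 32851. On the other strand, where it reads GTCC, it occurred in 19.2% and 17.4%. The shares of A and of GGAC at these starts therefore lay close to those of all starts.

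Of 1005 microRNA hairpins in the RefSeq table, 8 overlapped a sham peak under 1000 bases on the same strand and 3 lay wholly inside one. The hairpin of Mir671 is the one of these 3 whose peak had the highest CPM by the mean of both libraries (in library 0 the Mir6936 peak was higher, with 5.31 CPM), and its mature arms are shown as transcripts that share the peak, with the seed (bases 2 to 8) in capitals.
mmu-miR-671-5p: aGGAAGCCcuggaggggcuggag
mmu-miR-671-3p: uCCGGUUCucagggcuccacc

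The arms lie at chr5:24592132-24592154 and chr5:24592171-24592191 inside a 539-base peak in the 3' UTR of Chpf2, a gene of chondroitin chain synthesis. That peak held 38 counts (4.69 CPM) in library 0 and 150 counts (10.05 CPM) in library 1. The counts do not tell reads of the host messenger from reads of the hairpin.

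The libraries differed in depth. Library 0 held 8098543 counts over the sham peaks and library 1 held 14927209, and the median peak had 110 counts in library 0 and 221 in library 1. No count was found in 87 peaks of library 0, where 3 counts, the upper limit that a count of 0 allows, equal 0.370 CPM. In library 1 the lowest peak held 4 counts. In both libraries together 16313 peaks (90.9%) had at least 10 counts. The median peak held 13.6 CPM in library 0 and 14.8 in library 1, and the 1% of peaks with the highest CPM held 26.7% and 26.5% of all counts. A small part of the peaks therefore carried a large part of the signal in both libraries.

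By the classes of the deposited table, coding sequence held most of the peaks and of the counts in sham cortex. The class cds had 9097 peaks (50.7%) in 5340 genes and held 69.2% of counts in library 0 and 66.2% in library 1 (67.7% ± 2.13, SD, n = 2). The 3' UTR class had 7040 peaks (39.2%) in 5097 genes and held 22.4% and 26.02% (24.2% ± 2.56, SD, n = 2). The share of counts was thus larger than the share of peaks for coding sequence and smaller for 3' UTRs, in both libraries. The lead of coding sequence by number of peaks depended on long peaks. Among peaks under 1000 bases there were 5766 coding and 6349 3' UTR peaks.

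The 5' UTR class had 1140 peaks (6.35%) and held 4.51% and 4.21% of counts. The class NP_exon, which neither labels nor file headers define, had 666 peaks (3.71%) and held 3.92% and 3.600%. Because of the large number of counts behind each share, 95% Wilson intervals, which cover counting error only, were narrow: 69.1% to 69.2% for coding sequence in library 0. The distance between the libraries was larger than that for each of the 4 classes.

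**Figure D1:**
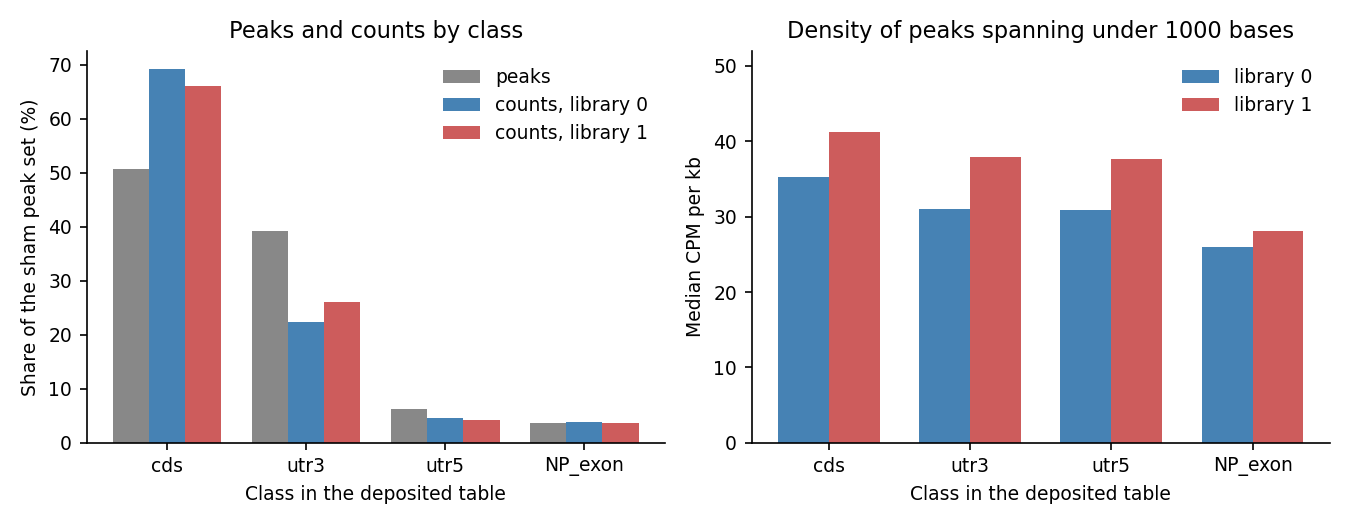
The left bars give each class's share in percent of the 17943 sham peaks (grey) and of the counts of library 0 (blue) and library 1 (red), and the right bars give the median CPM per kilobase of peaks under 1000 bases. Coding sequence holds 50.7% of peaks and 66.2% to 69.2% of counts, and among short peaks its median density is the highest of the 4 classes in each library.

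Which class appeared strongest depended on the scale. On the CPM scale the median coding peak held 20.5 in library 0 and 20.8 in library 1, and the median 3' UTR peak 9.88 and 11.7. Per kilobase of listed length the order was reversed, with 22.9 and 26.7 CPM per kilobase for coding peaks and 29.1 and 35.8 for 3' UTR peaks. The listed length is the distance from start to end on the genome in every row and so includes introns, and 16.8% of coding peaks but 2.66% of 3' UTR peaks spanned more than 5000 bases.

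Among peaks under 1000 bases the order turned again. Coding peaks then held a median of 35.2 and 41.2 CPM per kilobase, 3' UTR peaks 30.9 and 37.9, 5' UTR peaks 30.9 and 37.6, and NP_exon peaks 25.97 and 28.1. Within each library the classes were ordered with coding highest and NP_exon lowest, but the gap between coding and 3' UTR medians was smaller than the gap between the libraries within either class.

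Peak span itself was uneven. The 11685 peaks up to 500 bases long made up 65.1% of the set and held 25.4% of counts in library 0 and 27.3% in library 1. The 1894 peaks over 5000 bases made up 10.6% and held 35.7% and 29.8%. The 184 peaks over 50000 bases were 1.03% of the set and held 10.7% and 6.79%, so these few long peaks, each covering introns, carried a larger share in library 0. In that group the median log2 ratio of library 1 to library 0 was -0.70, whereas it was 0.29 in peaks up to 500 bases.

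**Figure D2:**
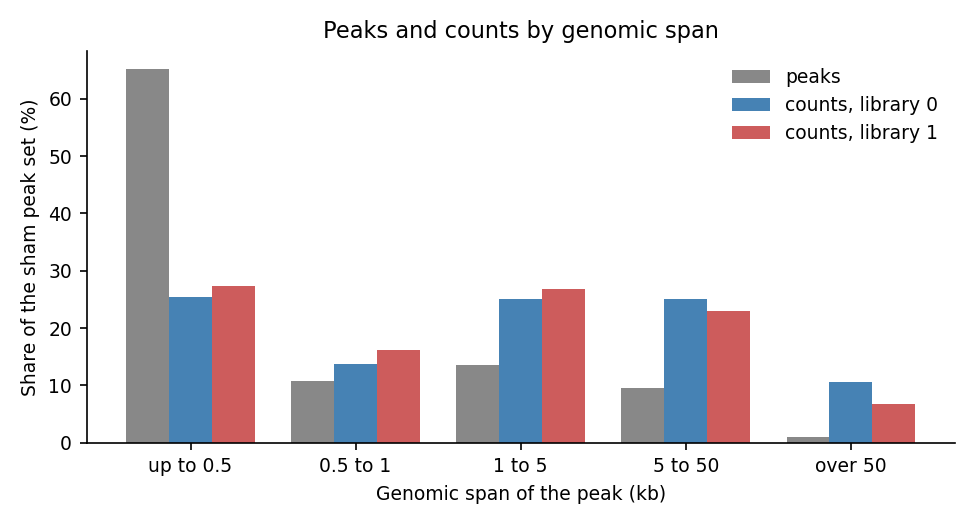
Bars give the share in percent of the sham peaks (grey) and of the counts of library 0 (blue) and library 1 (red) in 5 bins of genomic span in kilobases. The shortest bin holds 65.1% of peaks but 25.4% and 27.3% of counts, and the longest bin holds 10.7% of library 0 and 6.79% of library 1.

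The class names matched where short peaks lay along their genes. Over the 5791 short 3' UTR peaks inside a RefSeq gene span, the median peak lay 95.9% of the way along the gene and 1434 bases from its 3' end, and 72.3% were in the last 10% of the gene. The 5420 short coding peaks had their median at 69.1% of the way, with 22.1% in the last 10%. The 693 short 5' UTR peaks had theirs at 1.49% of the way, 406 bases from the 5' end. These distances are along the genome with introns included and do not locate the stop codon.

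Sham peaks fell in 9060 genes. A peak was found in 8453 of 21900 RefSeq protein-coding genes (38.6%). Coding peaks alone were found in 2943 genes (32.5%), 3' UTR peaks alone in 2678 (29.6%) and both of these without a 5' UTR peak in 1906 (21.0%). Coding, 3' UTR and 5' UTR peaks together were found in 276 genes (3.05%). Most genes with a peak thus had it in coding sequence, in the 3' UTR or in both.

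A single peak was found in 4604 genes (50.8%), 2 peaks in 2334, 3 peaks in 1084, 4 to 9 peaks in 1000 and 10 or more in 38. Genes with more peaks were longer and had more counts. The median RefSeq gene length was 23.3 kilobases for genes with 1 peak and 139 kilobases for genes with 10 or more, and the median summed CPM rose from 9.38 and 10.4 to 564 and 523 in libraries 0 and 1. As a description across genes, which are not independent and whose peaks share the same libraries and depth, the number of peaks had a Spearman correlation of 0.25 with gene length over 8358 genes and of 0.55 with the summed CPM over 9060 genes. The second of these has the number of peaks on both sides, since the CPM is summed over them.

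**Figure D3:**
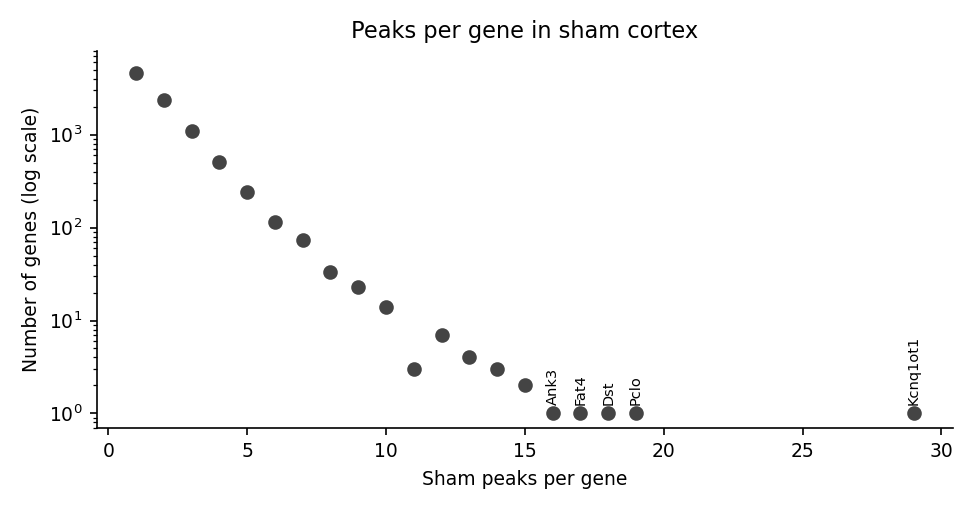
Each point gives the number of genes (vertical axis, log scale) that have the number of sham peaks on the horizontal axis, and the 5 genes with the most peaks are named. From 4604 genes with 1 peak the number falls to single genes at 16 to 19 peaks, and Kcnq1ot1 stands apart with 29.

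The gene with the most peaks was not a coding gene. Kcnq1ot1, the imprinted antisense RNA that silences its neighbours in cis, had 29 peaks between chr7:143215753-143295529, all of class NP_exon, and held 590 CPM in library 0 and 665 in library 1. Its weakest peak held 1.98 and 1.47 CPM and its strongest 95.1 and 138. The peaks had a median span of 302 bases with a median gap of 674 bases, so the signal was spread along the transcript.

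The next genes encode very large proteins. Pclo, which encodes the presynaptic scaffold piccolo, had 19 peaks, 18 of them coding, with 2910 and 3483 CPM. Dst, a cytoskeletal linker, had 18 peaks, all coding, with 2756 and 2374 CPM. Fat4, a giant cadherin, had 17 coding peaks with 41.6 and 64.4 CPM in all, and its weakest peak held no count in library 0. Many peaks in a gene thus did not require a high level.

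Ank3, the ankyrin of the axon initial segment, had 16 peaks (1969 and 2222 CPM). The zinc finger homeobox genes Zfhx3 and Zfhx4 had 15 each, with 282 and 303 CPM for Zfhx3 and 182 and 198 for Zfhx4. Syne1, a linker of nucleus and cytoskeleton, Macf1, a linker of actin and microtubules, and Ahnak, a giant scaffold protein, had 14 each. Their levels were 1593 and 1534 CPM for Syne1, 1208 and 1072 for Macf1 and 188 and 186 for Ahnak. In each of these 3 genes at least 13 of the peaks were coding.

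The leading transcripts were ranked by CPM summed over a gene's peaks and averaged over both libraries, and the first 3 were Map1b, Gm37376 and Map1a. The sum is not corrected for length. The 20 leading genes held 11.7% of counts in library 0 and 11.97% in library 1, and 15 of 20 were shared when each library was ranked on its own. The plot of the 20 leading genes shows both values for each.

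**Figure D4:**
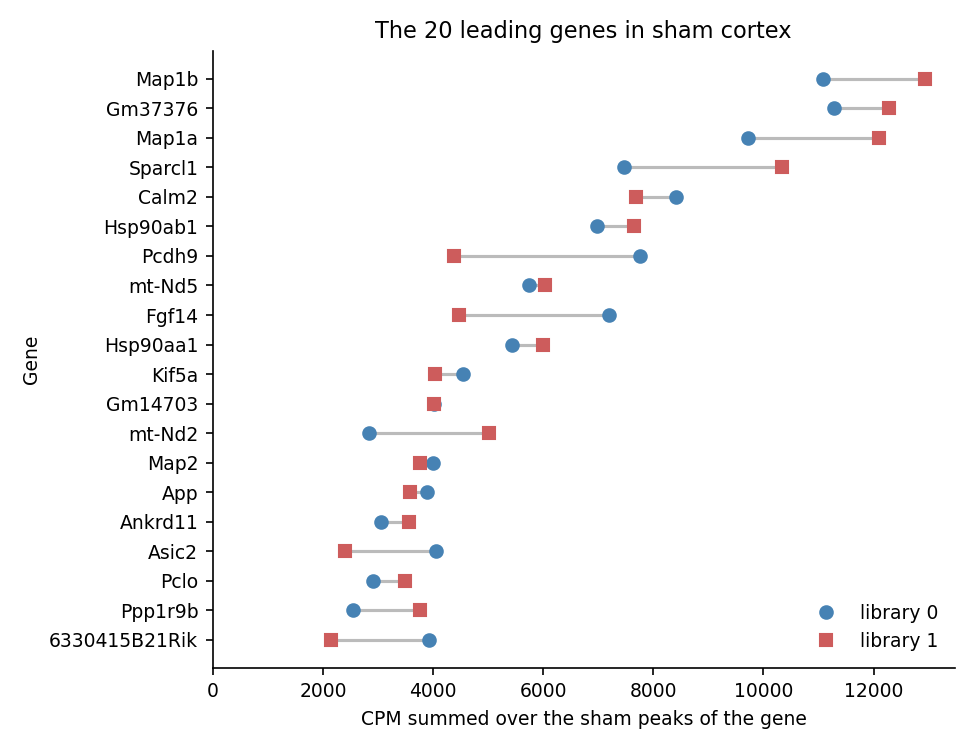
Points give the CPM summed over the sham peaks of each of the 20 leading genes in library 0 (blue circles) and library 1 (red squares), joined by a grey line. Map1b, Gm37376 and Map1a lead in both libraries, and Pcdh9, Fgf14, Asic2 and 6330415B21Rik lie clearly lower in library 1.

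Map1b and Map1a encode microtubule-associated proteins of axons and dendrites. Map1b had 9 peaks and held 11090 CPM (89816 counts) in library 0 and 12936 CPM (193097 counts) in library 1. Its strongest peak, at chr13:99433093-99434860 on the minus strand in coding sequence, held 72.0% of that sum and 4427 and 5361 CPM per kilobase. Map1a had 10 peaks with 9723 and 12095 CPM, and its strongest coding peak held 2533 and 2979 CPM per kilobase. Both genes were higher in library 1, by 0.22 and 0.31 on the log2 scale.

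Map2, which encodes a microtubule-associated protein of dendrites, held 3997 and 3761 CPM over 7 peaks. Kif5a, a kinesin heavy chain of axonal transport, held 4541 and 4043 CPM over 6 peaks. These genes differed between the libraries by less than 0.2 on the log2 scale.

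Sparcl1, Calm2 and a pair of chaperone genes were also among the first 10. Sparcl1, the astrocyte-secreted matrix protein hevin, had 1 peak of 3610 bases with 7472 and 10338 CPM. Calm2, a calmodulin gene, had 1 peak of 12938 bases with 8413 and 7683 CPM. The heat shock protein 90 genes followed, with 6973 and 7651 CPM for Hsp90ab1 and 5435 and 6001 for Hsp90aa1. Among these, Sparcl1 had the widest gap between the libraries.

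App, the amyloid precursor protein gene, held 3896 and 3578 CPM. Ankrd11, a chromatin regulator, held 3055 and 3564, Pclo 2910 and 3483, and Ppp1r9b, the gene of the spine protein spinophilin, 2554 and 3769. Ppp1r9b was thus the one of these 4 with the largest gap.

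Some genes led by long spans rather than by dense signal. The main peak of Pcdh9, a protocadherin, spanned 326111 bases and held 22.3 CPM per kilobase in library 0 and 11.4 in library 1. That of Fgf14, an intracellular regulator of sodium channels, spanned 484027 bases at 14.8 and 9.17 CPM per kilobase, and that of Asic2, an acid-sensing ion channel, 815026 bases at 4.94 and 2.90. On the CPM scale these genes held 7754 and 4380 (Pcdh9), 7201 and 4477 (Fgf14) and 4060 and 2405 (Asic2), higher in library 0 each time. In 8 of the 20 leading genes the main peak spanned more than 5000 bases, and with such peaks left out 13 of the 20 stayed among the leading 20.

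Counted over peaks under 1000 bases alone, the leading genes were Gm37376, Hsp90ab1, mt-Nd5, mt-Nd2 and Map1b. Map1b then held 3263 and 3457 CPM. Genes that entered the leading 20 in this way included Calm3, another calmodulin gene (3140 and 2310 CPM), Ank2, an ankyrin (2587 and 2559 CPM), and the imprinted zinc finger gene Peg3 (1772 and 1539 CPM). The 5 highest included 2 mitochondrial genes, whose transcripts have no introns.

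Dense short peaks marked another group. The highest density belonged to Gm37376, a 454-base NP_exon peak at chr19:5801940-5802393 on the plus strand with 24859 CPM per kilobase in library 0 and 27067 in library 1. The interval lies within the RefSeq span of Malat1, an abundant nuclear long noncoding RNA of the opposite strand, and neither the labels nor the file headers say whether the authors' counting used strand. No row used here carries the symbol Malat1. Reads of the 2 transcripts cannot be told apart there.

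The chaperone gene Hspa8 followed with a 91-base coding peak at 21584 and 12155 CPM per kilobase. Hsp90ab1 had a 516-base coding peak at 9607 and 11991, and Snap25, a gene of the vesicle fusion machinery, a 61-base coding peak at 8974 and 7453. Ubb, a polyubiquitin gene, had a 182-base coding peak at 7084 and 2795, and a 121-base 3' UTR peak named Igsf5 held 5423 and 4666 in the span of Pcp4, a calmodulin-binding protein gene on the same strand. The Ubb and Hspa8 densities differed more between the libraries than those of Snap25 and Igsf5. Very short lengths make a density sensitive to where the peak's edges were set.

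The mitochondrial genome held 13 peaks under 8 gene names, with 1.67% of counts in library 0 and 1.81% in library 1. Mt-Nd5, a subunit of respiratory complex I, held 5735 and 6025 CPM over 4 peaks, and mt-Nd2, another subunit, 2843 and 5021 over 2 peaks. One of the 4 peaks named mt-Nd5 lies on the minus strand at chrMT:13551-14070, where it overlaps ND6, while the others lie on the plus strand. That peak held 1560 and 2011 CPM of the mt-Nd5 sum, and which gene its reads come from was not tested. In CPM per kilobase the peak of mt-Co1, a cytochrome oxidase subunit, held 19963 and 10894, that of mt-Atp8, an ATP synthase subunit, 6528 and 5226, and the strongest of mt-Nd2 6729 and 13327. The mt-Co1 peak was thus lower in library 1 and the mt-Nd2 peak higher. The mt-Atp8 peak overlaps ATP6, and which of these genes its reads come from was not tested.

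Within the 3' UTR class the strongest peaks on the CPM scale were those of Ptms, Calr, Stmn1, Akap5 and Cplx2. Ptms, which encodes parathymosin, held 2040 CPM in library 0 and 2498 in library 1 over 3855 bases. Calr, the endoplasmic reticulum chaperone calreticulin, held 1513 and 2406 over 1607 bases. Stmn1, the microtubule-destabilizing stathmin, held 1992 and 1812 over 2739 bases. Calr had the largest gap between the libraries of these 5.

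Akap5, a postsynaptic kinase anchor, held 1658 and 2003 CPM, and Cplx2, a complexin of vesicle release, held 1771 and 1879. Among 3' UTR peaks under 1000 bases, Ywhah had the highest mean of both libraries, with 1628 and 1223 CPM, before Map1b (1310 and 1455 CPM), the opioid precursor gene Penk (1356 and 1400 CPM), the neurofilament gene Nefl (1106 and 1412 CPM) and Ddn (691 and 1569 CPM). Ywhah was the highest of these 5 in library 0 and the lowest in library 1. All of these had more than 5000 counts in each library.

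Within the 5' UTR class the strongest peaks were long. Basp1, a growth-cone membrane protein gene, held 1656 and 1850 CPM over 49647 bases, and Map2 1440 and 1103 over 64694 bases. Ppp1r9b held 760 and 1753 over 3597 bases, Ptprd, a receptor phosphatase of synapse formation, 1256 and 746 over 144618 bases, and Lrrc4c, a netrin-G ligand gene, 878 and 853 over 236588 bases. The span of 4 of these 5 exceeded 40 kilobases. Among those under 1000 bases the highest by the mean of both libraries was Gpm6a, a neuronal membrane glycoprotein gene, with 525 and 467 CPM in 240 bases. A peak named Shc4, in the span of Eid1, was nearly equal by that mean (401 and 591 CPM) and was higher in library 1.

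The NP_exon class was dominated by a few intervals that overlap other genes. Gm37376 alone held 28.8% of NP_exon counts in library 0 and 34.1% in library 1. Of the 666 peaks, 486 (73.0%) lay in the span of another RefSeq protein-coding gene on either strand, and these held 64.2% and 57.4% of the class's counts. Reads from such a pair of genes cannot be told apart here.

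Next came 6330415B21Rik, with 3922 and 2148 CPM over 483824 bases within Ctnna2, an alpha-catenin gene on the same strand. Gm37628 held 3270 and 1846 CPM over 266290 bases within Adgrb3, an adhesion receptor gene on the same strand. Gm14703 had a plus and a minus peak within Syp, the synaptophysin gene, and held 4018 and 4013 CPM in all. The plus peak, with 15229 and 27390 counts, lies inside the interval of the minus peak, with 17309 and 32514. Whether the same reads were counted in both was not tested, and overlapping peaks were reduced to 1 only within a strand. The values of Gm14703 were nearly equal in both libraries, while the long-spanning peaks were higher in library 0.

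Of the cell type and pathway lists examined, 288 of 419 gene symbols had a sham peak. Over all RefSeq protein-coding genes the share was 38.6%. As for the leading genes, the sums are not corrected for length, and some rest on long peaks that cover introns. Markers of cortical excitatory neurons had a peak in 14 of 16 genes, with a median of 138 CPM in library 0 and 146 in library 1, against 23.1 and 25.5 for all genes with a peak. Camk2a, the synaptic calcium kinase, held 1316 and 1202 CPM, Nrgn, the calmodulin-binding neurogranin, 916 and 829, and the layer transcription factors Cux1 412 and 273 and Bcl11b 188 and 291. The strongest Cux1 peak spanned 79710 bases and held 233 and 119 CPM. Tbr1 and Lamp5 had no peak in the rows used.

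Markers of thalamus and striatum, regions that adjoin the cortex in dissection, also had peaks, in 17 of 19 genes with a median of 54.3 and 53.5 CPM. Penk held 1362 and 1408 CPM, Ppp1r1b, the dopamine-regulated phosphatase inhibitor, 597 and 703, Ntng1, the netrin-G1 gene, 489 and 675, and Tcf7l2, a thalamic transcription factor, 388 and 302. Prkcd and Tac1 had no peak, and Gbx2, a defining gene of thalamus, held 2.22 and 5.49. The summed level of the list was 3434 and 3880 CPM, against 3783 and 3701 for cortical excitatory neurons. The share of genes with a peak was thus similar in both lists and does not single out cortex. Several of these genes are also expressed in cortex, and the part of other regions in the results was not tested.

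Other cells of the cortex gave peaks in different proportions of short lists, beside 38.6% over all RefSeq protein-coding genes. Astrocyte markers had a peak in 11 of 13 genes, with a median of 144 and 234 CPM, led by the glutamate transporter Slc1a2 (1165 and 1229), the apolipoprotein Apoe (1307 and 1052), the transporter Slc1a3 (561 and 674) and clusterin, Clu (673 and 502). Gfap and Glul had no peak. Myelin and oligodendrocyte genes had one in 15 of 17, with 35.2 and 47.7 CPM, with Bcas1 (570 and 466), Mbp (401 and 344) and Ermn (282 and 332) among the highest. The Mbp peak spanned 40308 bases. Mag and Cldn11 had no peak.

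Interneuron markers had a peak in 9 of 16 genes (56%, beside 38.6% over all protein-coding genes), with 24.8 and 26.3 CPM. Dlx1, a transcription factor, held 138 and 216, Calb2, the calcium buffer calretinin, 138 and 101, Sst, somatostatin, 80.1 and 57.0, and Lhx6, another transcription factor, 24.8 and 54.5. Gad1, Pvalb, Vip, Dlx2, Dlx5, Npy and Reln had none. The interneuron median was close to that of all genes with a peak.

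Microglia and macrophage markers had a peak in 7 of 14 genes (50%, beside 38.6% over all protein-coding genes). By the mean of both libraries none of these 7 was above the median of all genes with a peak. They were led by Cx3cr1 (20.1 and 26.5), Csf1r (14.8 and 20.4), C1qa (13.1 and 19.4) and P2ry12 (13.5 and 13.4), of which Cx3cr1 was above the median gene (25.5 CPM) in library 1, while C1qb, C1qc, Trem2, Tyrobp, Itgam and Ptprc were among those with none. Endothelial and mural markers had a peak in 7 of 12 (58.3%), with 20.3 and 38.3 CPM. They were led by Rgs5 (123 and 105), Slc2a1 (53.6 and 84.1), Flt1 (34.3 and 38.3) and Pdgfrb (18.4 and 38.4). Pecam1, Tek, Ly6c1, Acta2 and Vtn had none. The endothelial and mural median was below that of all genes with a peak in library 0 and above it in library 1.

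Choroid plexus and ependyma markers had a peak in 4 of 9 genes (44.4%), near the 38.6% over all protein-coding genes. These were Clic6 (41.1 and 48.8), Kl (21.9 and 27.9), Ccdc153 (20.1 and 20.5) and Prlr (5.31 and 6.23). Ttr, Aqp1, Otx2, Foxj1 and Tmem212 had no peak. Of the 10 blood cell markers, which were the globin genes Hba-a1, Hba-a2, Hbb-bs and Hbb-bt with Alas2, Cd3e, Cd79a, S100a8, S100a9 and Ly6g, none had a peak. A gene without a peak need not be without RNA, since a peak needs methylation as well.

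**Figure D5:**
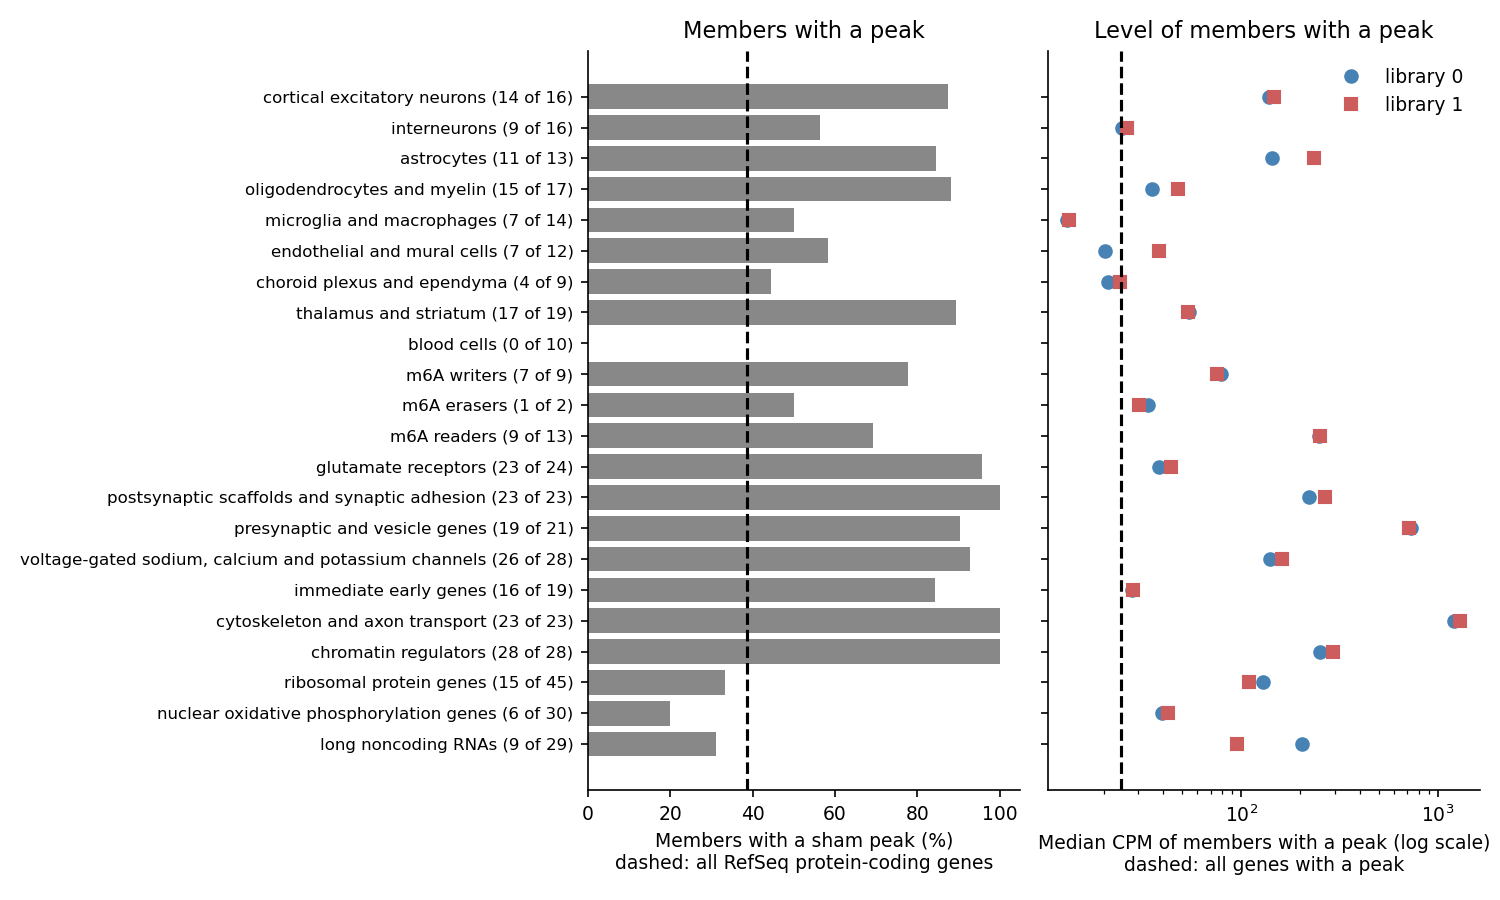
The left bars give the percent of each list's genes with a sham peak, against 38.6% of RefSeq protein-coding genes (dashed), and the right points the median CPM of the genes with a peak in library 0 (blue circles) and library 1 (red squares) on a log scale, against 24.4 CPM for all genes with a peak (dashed, mean of both libraries). Cytoskeleton, chromatin and postsynaptic lists reach 100%, while the blood cell and oxidative phosphorylation lists lie below the dashed line on the left. The ribosomal protein list (33.3%) lies near that line. The long noncoding RNA list (31.0%) holds no protein-coding set, so the line is no like measure for it.

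The machinery of m6A carried peaks on its own transcripts. Of 9 writer genes 7 had a peak. Zc3h13, which holds the writer complex in the nucleus, had 8 peaks with 1067 CPM in library 0 and 1292 in library 1. The adaptor Rbm15b, which guides the complex to RNA, held 178 and 297, Virma, the scaffold listed under its older name 1110037F02Rik, 142 and 192, and Wtap, the regulatory subunit, 79.0 and 64.2. The genes of the catalytic pair, Mettl3 and Mettl14, had no peak in the rows used.

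Of the 2 erasers, Fto had 2 peaks with 33.5 and 30.2 CPM and Alkbh5 had none. Of 13 readers 9 had a peak, with a median of 249 and 252 CPM. They were led by Eif3a, a subunit of a translation initiation factor (1901 and 2479), Hnrnpc (569 and 599) and Hnrnpa2b1 (545 and 453), both nuclear RNA-binding proteins, and Ythdc1, the nuclear YTH reader (468 and 521). Ythdc2, Igf2bp1, Igf2bp2 and Igf2bp3 had none. In the writer list 21 of 26 peaks were coding, as were 13 of 18 in the reader list.

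Synaptic genes nearly all had a peak. Presynaptic and vesicle genes had one in 19 of 21, all above the median of all genes, with a median of 727 and 713 CPM. Pclo led, and Syt1, the calcium sensor of release, held 2679 and 2135, the complexin Cplx1 2154 and 2437, and the active zone scaffold Rims1 2558 and 1726. The strongest Rims1 peak spanned 209098 bases and held 2239 and 1217 CPM. That of Syt1 spanned 54326 bases with 2247 and 1850 CPM, and the Cplx1 peak 30093 bases. The synapsin genes Syn2 and Syn3 had no peak. Of the 66 peaks in this list 46 were coding and 19 were in 3' UTRs.

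Postsynaptic scaffolds and adhesion genes had a peak in all 23 members, with 222 and 265 CPM. Dlgap1, a scaffold of the postsynaptic density, held 1335 and 901, Lrrtm3, a synaptic adhesion gene, 1265 and 729, and Dlg4, which encodes PSD-95, 523 and 412. These 3 genes were higher in library 0. The strongest Dlgap1 peak spanned 98477 bases and held 960 and 653 CPM. That of Lrrtm3 spanned 157972 bases and held 1202 and 677 CPM.

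Glutamate receptors had a peak in 23 of 24 genes, with 38.0 and 43.9 CPM. Grin2b, an NMDA receptor subunit, had 13 peaks, 9 of them in the 3' UTR, with 1309 and 1362 CPM. The metabotropic receptor Grm5 held 1309 and 1028, and the AMPA receptor subunits Gria1 477 and 524 and Gria3 478 and 295. The strongest Grm5 peak spanned 54936 bases and held 997 and 724 CPM. That of Gria3 spanned 18005 bases and held 452 and 248 CPM. Grm4 had no peak. In this list 38 of 67 peaks were in 3' UTRs and 22 in coding sequence.

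Voltage-gated channels had a peak in 26 of 28 genes, with 140 and 161 CPM, and 50 of their 99 peaks were in 3' UTRs. The potassium channel Kcnb2 held 1843 and 1189, the sodium channels Scn2a 1310 and 1550 and Scn8a 624 and 683, and the calcium channel Cacna1e 689 and 869. Of the Kcnb2 sum, 1768 and 1096 CPM lay in 1 peak that spanned 396816 bases. Kcnh7 was among the genes with no peak. Receptor and channel lists thus had more 3' UTR than coding peaks. Over all sham peaks the order was the other way, though not among those under 1000 bases.

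Cytoskeleton and axon transport genes had a peak in all 23 members and the highest median of the lists, 1208 and 1296 CPM, and 106 of their 138 peaks were coding. Map1b, Map1a, Kif5a and Map2 led the list with the values given above. Chromatin regulators had a peak in all 28, with 252 and 293 CPM, and 126 of their 152 peaks were coding. Chd3, a nucleosome remodeller, held 2609 and 2735, Smarca2, a remodelling ATPase, 2428 and 2516, the histone methyltransferase Ash1l 845 and 977, and the remodeller Chd5 796 and 828.

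Immediate early genes had a peak in 16 of 19, with a median of 27.9 and 28.3 CPM. Egr1 held 343 and 689, Jun 89.9 and 201, Arc, a synaptic regulator, 74.0 and 68.6, and Nr4a2 42.2 and 51.5. Fos, Egr4 and Klf4 had none. Egr1, Jun, Fosb, Egr2 and Ier2, 5 of the 16, were more than 2-fold higher in library 1, as were 10.2% of all 9060 genes by the CPM summed over their peaks (0.85% were more than 2-fold higher in library 0). With TMM or DESeq2 scaling (described with the agreement of the libraries) Egr1 and Jun were higher in library 1 by less than 2-fold, and Fosb, Egr2 and Ier2, with 12, 10 and 9 counts in library 0, stayed beyond it, as did 7.17% and 6.94% of all genes.

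Ribosomal protein genes had a peak in 15 of 45 (33.3%), near the 38.6% over all protein-coding genes. Those with a peak held a median of 129 and 110 CPM. Rps24 held 985 and 890, Rpl4 726 and 619, Rpl14 468 and 356 and Rps6 385 and 367. The 30 without a peak included Rpl3, Rpl7, Rpl7a, Rpl8, Rpl9, Rpl10, Rpl10a, Rpl13, Rpl19, Rpl23, Rpl26, Rpl27, Rpl37, Rplp0, Rplp1, Rplp2, Rps2, Rps3, Rps3a1, Rps4x, Rps7, Rps13, Rps14, Rps18, Rps20, Rps23 and Rps27a. Ribosomal protein genes have many near-identical pseudogenes, and the labels do not say how the authors assigned reads that match several copies.

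Nuclear genes of oxidative phosphorylation had a peak in 6 of 30. Cycs, cytochrome c, held 265 and 190 CPM, Cox5b 76.7 and 71.2, Ndufs3 54.2 and 65.2 and Ndufs1 24.6 and 19.4. Those without a peak included Ndufa1, Ndufa4, Ndufa9, Ndufa10, Ndufb5, Ndufb8, Ndufv1, Sdha, Sdhb, Sdhd, Uqcrc1, Uqcrc2, Uqcrfs1, Cox4i1, Cox5a, Cox6a1, Cox6c, Cox7a2, Atp5a1, Atp5b, Atp5c1, Atp5o and Atp5g1. Of the 9 peaks in this list 5 were in 5' UTRs.

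Long noncoding RNAs had a peak under 9 of 29 listed symbols, some of which name the same gene. The snoRNA host Snhg11 held 1381 and 1501 CPM and 2900097C17Rik, an older symbol of the listed Norad, 802 and 994. Kcnq1ot1 held 590 and 665 and the imprinted Peg13 299 and 425. No peak stood under the symbols Malat1, Neat1, Meg3, Mirg, Xist, Miat, Airn, Gas5, Pantr1, Pvt1, Cyrano, Oip5os1, Rmst, Ftx, Jpx, Firre, H19, A330008L17Rik and Gm26917. Since a peak within the Malat1 span stands under another name, a missing symbol does not show a missing signal.

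Gene families told by their symbols, chosen after the values were seen, spread widely. Zfp zinc finger genes had a peak in 277 of 397 (69.8%), with a median of 12.7 and 16.9 CPM, and protocadherins in 63 of 69 (91.3%), with 14.2 and 14.9. Kinesins had one in 24 of 38 (63.2%), Kcn potassium channels in 49 of 81 (60.5%) and Slc transporters in 155 of 375 (41.3%). Coding peaks made up 66.7% of those in Zfp genes and 86.7% of those in protocadherins, against 36.6% in Kcn genes and 32.8% in Slc genes. Clustered protocadherins share exons and similar sequences, so their peaks are not independent.

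Among families of other tissues, olfactory receptors had a peak in 6 of 1110 genes (0.541%), with a median of 0.864 and 2.21 CPM, and Vmn vomeronasal receptors in none of 355. Keratins had a peak in 3 of 53, with a median of 85.4 and 63.2 CPM, above that of all genes with a peak. The share of such genes with a sham peak was thus far below the 38.6% over all protein-coding genes.

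The 2 libraries ordered the peaks alike. Across the 17943 peaks, which share their gene's level and the 2 libraries, log2 CPM had a Pearson correlation of 0.98 and CPM a Spearman correlation of 0.98, given as a description. CPM differed more than 2-fold for 2226 peaks (12.4%), of which 2062 (11.5%) were higher in library 1 and 164 (0.914%) in library 0. With library sizes scaled by edgeR's trimmed mean of M-values (TMM) 1450 were higher in library 1 and 331 in library 0, and with DESeq2 size factors 1390 and 364, so that library 1 was the higher in 92.6%, 81.4% and 79.2% of them. The median log2 ratio of library 1 to library 0 was 0.19 on the CPM scale, 0.02 with TMM and 0.00 with DESeq2.

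Much of the difference lay at low counts. In the 4486 peaks of lowest level, where the median count was 13 in library 0 and 39 in library 1, 35.9% differed more than 2-fold, against 3.46% in the 4486 of highest level. The share was 9.45% for coding peaks, 15.1% for 3' UTR peaks, 15.4% for 5' UTR peaks and 18.6% for NP_exon peaks. The classes with lower levels thus had larger shares, and their parts were not separated by a test.

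The strongest peaks that were more than 2-fold higher in library 1 included those of Ppp1r9b, Ddn, Sec62, Nap1l2 and Zbtb18. The 5' UTR peak of Ppp1r9b held 760 and 1753 CPM, and the 3' UTR peak of Ddn, a dendritic protein gene whose RNA is carried into dendrites, 691 and 1569. The 3' UTR peak of Sec62, a protein translocation gene, held 514 and 1335. The coding peaks of Nap1l2, a neuronal nucleosome assembly gene, and Zbtb18, a repressor of transcription, held 356 and 818 and 342 and 762. All of these spanned less than 5000 bases. With TMM scaling all but Zbtb18, and with DESeq2 size factors Ppp1r9b, Sec62 and Nap1l2, stayed more than 2-fold higher.

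Those more than 2-fold higher in library 0 included those of Ubb, Rbfox2, D5Ertd579e, Tenm4 and March1. The coding peak of the splicing factor gene Rbfox2 held 923 and 436 CPM. The Ubb peak held 1289 and 509, and the 3' UTR peak of D5Ertd579e 1018 and 321. The peaks of Tenm4, a teneurin adhesion gene, and March1, a ubiquitin ligase gene, held 552 and 258 and 532 and 242. Except for Ubb with 182 bases, these peaks spanned 41818 to 154668 bases, and all of them stayed more than 2-fold higher in library 0 under both other scalings.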

How the data were processed

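Per the file headers, the authors deposited whole-number read counts per peak for each library, not normalized, with a listed length, class and gene. STAR, DESeq2 and GRCm39 appear in the submitters' processing notes with no version or role. No source used here gives the peak caller, read counter or strand setting. Coordinates are the table's, read as GRCm38, because 98.2% of 16866 peaks with a RefSeq gene overlapped its GRCm38.p6 span. Rows marked as control peaks were used; peak numbers reach 28022, so these are part of the numbered peaks. Of the per-sample columns 2, of the injured group, were not used, nor were the 3 deposited lists.

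CPM, CPM per kilobase and sums per gene were computed in Python 3.11.15 with pandas 2.3.3, NumPy 2.4.6, SciPy 1.17.1 and matplotlib 3.10.9, and tested on simulated data. The main scaling is by counts over the sham peaks. Alternatives used edgeR 4.0.16 (TMM) and DESeq2 1.42.0 size factors in R 4.3.3, other denominators, a minimum of 10 counts in both libraries, overlapping peaks reduced to 1, and each library alone. Log2 ratios of peaks used CPM plus 0.5, and those of gene sums used no pseudocount. No test was run, so no p-value is given. Genes named are the 20 of highest summed CPM, the 10 densest peaks with at least 10 counts in both libraries, the 10 genes with most peaks, the 5 strongest peaks per class, the 4 highest members and the members without a peak of each list, and the 6 strongest peaks beyond 2-fold in each direction. The strongest short peaks and the other leading genes over short peaks, the transcripts with sequences, the hosts of microRNAs, the mitochondrial peaks, Gbx2, Fosb, Egr2 and Ier2 were named after their values were seen. The members and lists were chosen with earlier results of these data known. A few items that this rule names are not reported here. Wilson intervals cover counting error only.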

Additional observations from a re-analysis of the deposited data

How the results depend on the processing

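With 2 libraries and no test, these alternatives show only how values move. No paired analysis was possible because only 1 group is described and its results come from no test. With at least 10 counts in both libraries, coding peaks made up 51.8% and 3' UTR peaks 38.5% of the set, 51.9% of genes had 1 peak, 1095 peaks differed more than 2-fold (932 higher in library 1, 163 in library 0), and median CPM (mean of both libraries) was 24.0, 13.0, 11.9 and 9.52 for coding, 3' UTR, 5' UTR and NP_exon peaks, or 28.4, 37.9, 29.4 and 30.6 per kilobase. With counts over all rows of the table as denominator these medians were 11.6, 6.09, 5.31 and 4.18 CPM and 14.0, 18.3, 13.3 and 14.2 per kilobase, which only rescales each library. With DESeq2 size factors they were 19.7 for coding, 9.004 for 5' UTR and 7.09 for NP_exon peaks, and with overlapping peaks reduced to 1 NP_exon had 7.61. Alternatives chosen after seeing the data kept only peaks under 1000 bases: coding, 3' UTR, 5' UTR and NP_exon peaks then held 52.4%, 38.1%, 4.00% and 5.48% of counts, with medians of 11.2, 9.45, 7.35 and 6.82 CPM, and 38.2, 34.3 and 27.1 CPM per kilobase for coding, 5' UTR and NP_exon peaks. Of the 20 leading genes 9 stayed when CPM per kilobase was summed, 13 without peaks over 5000 bases (also chosen later), and 17 to 18 with 1 library left out. With 1 library left out, 18 to 19 of 21 lists with a peak had a median above that of all genes. The values for classes, peaks per gene and agreement, the number of lists above the median gene and the number of leading genes kept were followed under the alternatives computed for each. Of these, 86 stayed within a limit, and the 37 others are those above. The limit was the SD between the libraries or, for counts, 1.5 times. Shares of peaks and genes have no such SD, and small moves, as from 6.35% to 6.17% for 5' UTR peaks, were placed among the 86. The 86 do not measure stability, since leaving out 1 of 2 libraries always moves their mean by less than their SD. The median CPM of each list and the CPM of each leading gene were followed apart, and 223 of these values stayed while 64 moved. With counts over all rows as denominator, 20 leading genes and 19 list medians moved. Without library 0, 4 list medians moved, and without library 1, 7. The presynaptic median of 753 CPM became 713 without library 0 and 727 without library 1. Scaling by genomic span repeats the main value, because the listed length is that span in every row. Low counts limit the weakest peaks: 1629 had under 10 counts in library 0 and 20 in library 1.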
